A study of Homo sapiens with 24 samples.

Results

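The 10 genes described here handle heme and iron in human cells: HMOX1, BLVRB, ALAS1, FECH, FTH1, FTL, NCOA4, TFRC, SLC11A2 and SLC40A1. They were chosen by symbol, with earlier results of these data known. All 10 were found by Ensembl identifier among the 60617 genes of the count table. RNASeq was performed on MDA686TU cells, a malignant line from squamous cell carcinoma of the head and neck. The 4 groups of 6 libraries were an untreated control, EGCG (epigallocatechin gallate, a green tea polyphenol) at 40 µM, resveratrol (a stilbene polyphenol) at 15 µM, and the combination of EGCG at 40 µM and resveratrol at 15 µM, each for 24 h. EGCG had been dissolved in water and resveratrol in DMSO, and the sources used here do not say whether untreated cells received DMSO, so resveratrol and its solvent cannot be told apart. Nothing in the sources says that the replicates were separate cultures, so the p-values measure the spread between these libraries, which may be technical.

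The libraries held 7034872 to 11735574 counts, and 15476 genes had enough counts to be tested. The 8 squamous epithelial markers (such as KRT5 and KRT14) summed to 146871 to 155904 normalized counts in control libraries and to 118774 to 128766 with the combination. Erythroid and macrophage markers, whose cells carry much of the body's heme and iron traffic, summed to at most 11.9 and 16.8 normalized counts in any library, and none of the 13 was tested. Of 6 fibroblast markers, 2 were tested, and COL1A1 alone gave most of their sum of 898 to 1755. Replicates 1 to 3 differed from replicates 4 to 6 at 6.18% of tested genes, and mitochondrial transcripts took 0.249% to 0.326% of counts in the former and 0.448% to 0.775% in the latter. The labels name no batch, and values within each set of replicates are given below where the pooled call was not kept in both.

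Heme oxygenase 1, encoded by HMOX1, opens the heme ring and frees iron, carbon monoxide and biliverdin, which biliverdin reductases such as the BLVRB product reduce further. ALAS1 catalyses the rate-limiting start of heme synthesis outside the erythroid lineage, and FECH places iron into protoporphyrin at its end. Iron enters most cells on transferrin through the receptor TFRC, leaves endosomes through SLC11A2 (DMT1), is stored in a shell of the ferritin heavy chain FTH1 and light chain FTL, is recovered when NCOA4 carries ferritin to lysosomes, and leaves the cell through SLC40A1 (ferroportin). HMOX1, BLVRB, FTH1 and FTL are known targets of the oxidative stress factor NRF2, which BACH1, a heme-binding repressor, opposes at HMOX1.

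Ferritin and transferrin receptor mRNAs carry iron-responsive elements, short hairpins bound by the proteins ACO1 and IREB2 when iron is scarce. In ferritin and ferroportin mRNAs they stand in the 5′ UTR, where binding blocks translation, and in TFRC mRNA in the 3′ UTR, where binding protects the message from decay. The elements are shown because they separate the mRNAs by the region that carries them, and the counts below measure the same mRNAs. The search took each stem of C, 5 bases, the loop CAGTGN and 5 bases that pair with the 5 before the loop (G with U allowed), on the transcript strand of GENCODE release 44 (GRCh38). The loop is in capitals, written as DNA, and each sequence is 29 bases long.
FTH1, chr11:61967574-61967602, minus strand, 5′ UTR: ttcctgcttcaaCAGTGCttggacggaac
FTL, chr19:48965335-48965363, plus strand, 5′ UTR: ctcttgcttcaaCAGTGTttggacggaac
SLC40A1, chr2:189580661-189580689, minus strand, 5′ UTR: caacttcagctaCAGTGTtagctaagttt
TFRC, chr3:196050979-196051007, minus strand, 3′ UTR: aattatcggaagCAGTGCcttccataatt
TFRC, chr3:196050575-196050603, minus strand, 3′ UTR: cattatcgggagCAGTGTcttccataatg
TFRC, chr3:196050510-196050538, minus strand, 3′ UTR: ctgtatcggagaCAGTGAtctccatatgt
TFRC, chr3:196050463-196050491, minus strand, 3′ UTR: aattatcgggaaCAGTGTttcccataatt

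The FTH1 and FTL elements were identical at 26 of 29 positions, and the FTH1 element matched the TFRC elements at 9 to 11. TFRC held 4 matches, all in the 3′ UTR, and FTH1, FTL and SLC40A1 held 1 each, in the 5′ UTR. In the canonical transcripts of 19701 protein-coding genes, 0.0964% had a match in the 5′ UTR and 0.614% in the 3′ UTR. SLC11A2 had no match to these letters, and neither had the other 5 genes. Elements with another loop, stem or spacing would be missed, so no match does not mean that a gene has no element.

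Both treatments with resveratrol raised heme breakdown, ferritin and ferrochelatase transcripts and lowered the transferrin receptor. With EGCG alone 3 of the genes passed with small changes, and of these only ALAS1 passed in both sets of replicates. A gene passed when its Benjamini-Hochberg adjusted p over all 15476 genes was under 0.1 and its p under 0.05 in edgeR's quasi-likelihood test, the limits that the methods give. Of the 10 genes, 9 had enough counts for this test, and SLC40A1 had not. With resveratrol, 8 of 9 rose and 1 (TFRC) fell, where 56.9% of all tested genes passed in either direction, 28.9% upward and 28.0% downward. With the combination, 7 rose, 1 fell and 1 (NCOA4) did not pass, where 59.8% of all tested genes passed, 29.9% in each direction. With EGCG, 3 rose (BLVRB, ALAS1 and TFRC) and 6 did not pass, where 1.76% of tested genes passed, 0.905% upward and 0.859% downward. These comparisons share the same 6 control libraries. The genes were chosen with earlier results known, so the shares of all genes stand beside them as description, not as a test. Over the 9 genes the median log2 fold change against control was 0.11 for EGCG, 0.30 for resveratrol and 0.35 for the combination, and over all tested genes it was 0.00090, 0.0037 and -0.0015. Libraries of all 6 replicates lay above all 6 of the control for 2 of the 9 genes with EGCG (0.827% of all tested genes), 6 with resveratrol (15.3%) and 7 with the combination (15.6%). They lay below for 0 with EGCG (0.801%) and for 1, TFRC, with resveratrol (15.8%) and with the combination (16.3%). A scaling by library size alone put 68.3% of resveratrol calls and 64.6% of combination calls upward, against 50.7% and 50.04% here, and among these genes it turned only the direction of NCOA4 with the combination.

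**Figure D1:**
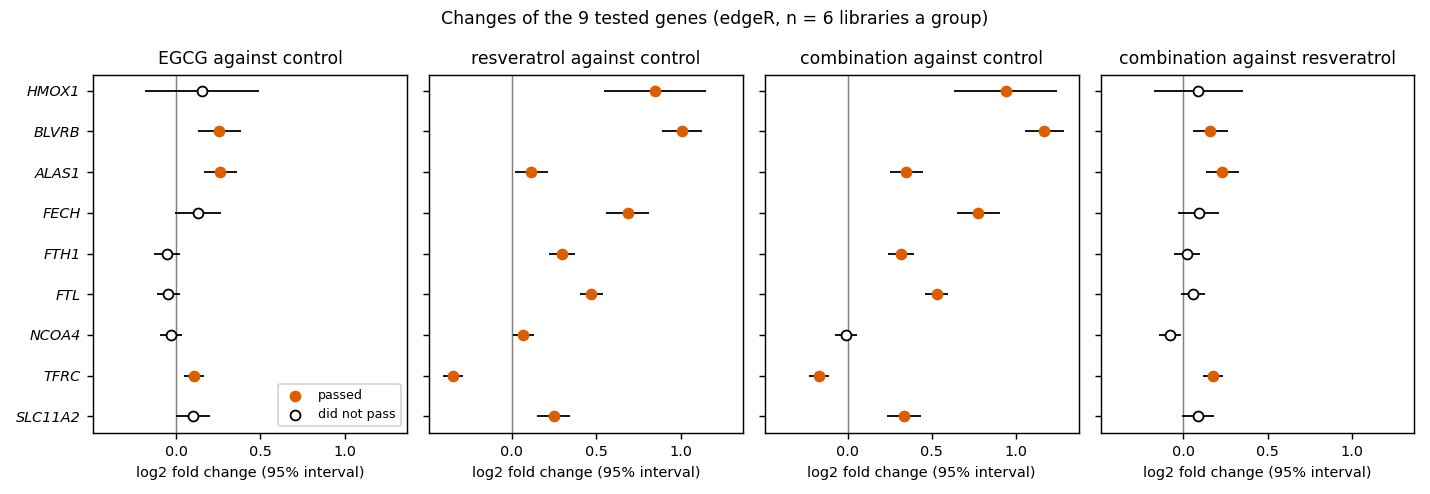
Log2 fold change of the 9 tested genes in 4 comparisons, with 95% intervals from edgeR (6 libraries a group). Filled points passed the test and open points did not. With resveratrol and with the combination HMOX1, BLVRB and FECH lie between 0.69 and 1.17, TFRC lies below 0, and with EGCG the 9 genes lie between -0.055 and 0.26.

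In heme breakdown, HMOX1 and BLVRB showed the largest changes among the 9 of the 10 genes that were tested, against control in the groups that held resveratrol. HMOX1 (ENSG00000100292, chromosome 22, 35380361 to 35394214, plus strand, GRCh38) ran from 18.4 to 32.3 normalized counts in control libraries, with a median of 23.3. It ran from 18.0 to 35.2 with EGCG (median 27.7), from 38.2 to 50.4 with resveratrol (median 44.4) and from 35.7 to 53.1 with the combination (median 48.5). All libraries with resveratrol lay above all control libraries, and the EGCG libraries overlapped the control throughout. The mean rose from 24.5 ± 4.76 (SD, n = 6) to 44.1 ± 4.89 with resveratrol, a log2 fold change of 0.85 (SE 0.15, adjusted p = 9.7e-06), and to 46.96 ± 5.98 with the combination (0.94, SE 0.15, adjusted p = 1.7e-06). With EGCG the log2 difference was 0.15 (95% interval -0.18 to 0.49, adjusted p = 0.832). These are few counts, 14 to 54 raw counts in a library, and the SE of HMOX1 was the largest among the 9 genes.

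BLVRB (ENSG00000090013, chromosome 19, 40447765 to 40465764, minus strand) had 190 to 221 normalized counts in control libraries (median 209), 394 to 440 with resveratrol (median 411) and 439 to 483 with the combination (median 463). No library with resveratrol overlapped the control. The mean of 207 ± 10.45 (SD, n = 6) rose to 415 ± 20.05 with resveratrol, a log2 fold change of 1.01 (SE 0.058, adjusted p = 7.3e-17), and to 463 ± 17.6 with the combination (1.17, SE 0.058, adjusted p = 6.7e-19). With EGCG it ran from 208 to 280 (median 241), partly within the control range, and rose by 0.26 on the log2 scale (SE 0.063, adjusted p = 0.0273). The rise with EGCG was seen in replicates 1 to 3. These had 280, 252 and 280 normalized counts against 190, 210 and 209 in the same replicates of the control, whereas replicates 4 to 6 had 208, 231 and 220 against 202, 210 and 221. The log2 fold change was 0.43 (adjusted p = 0.0106) within the former and 0.065 (adjusted p = 0.925) within the latter. The difference between the sets was not tested. Without EGCG replicate 1 or EGCG replicate 3 BLVRB did not pass (adjusted p = 0.129 in both).

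**Figure D2:**
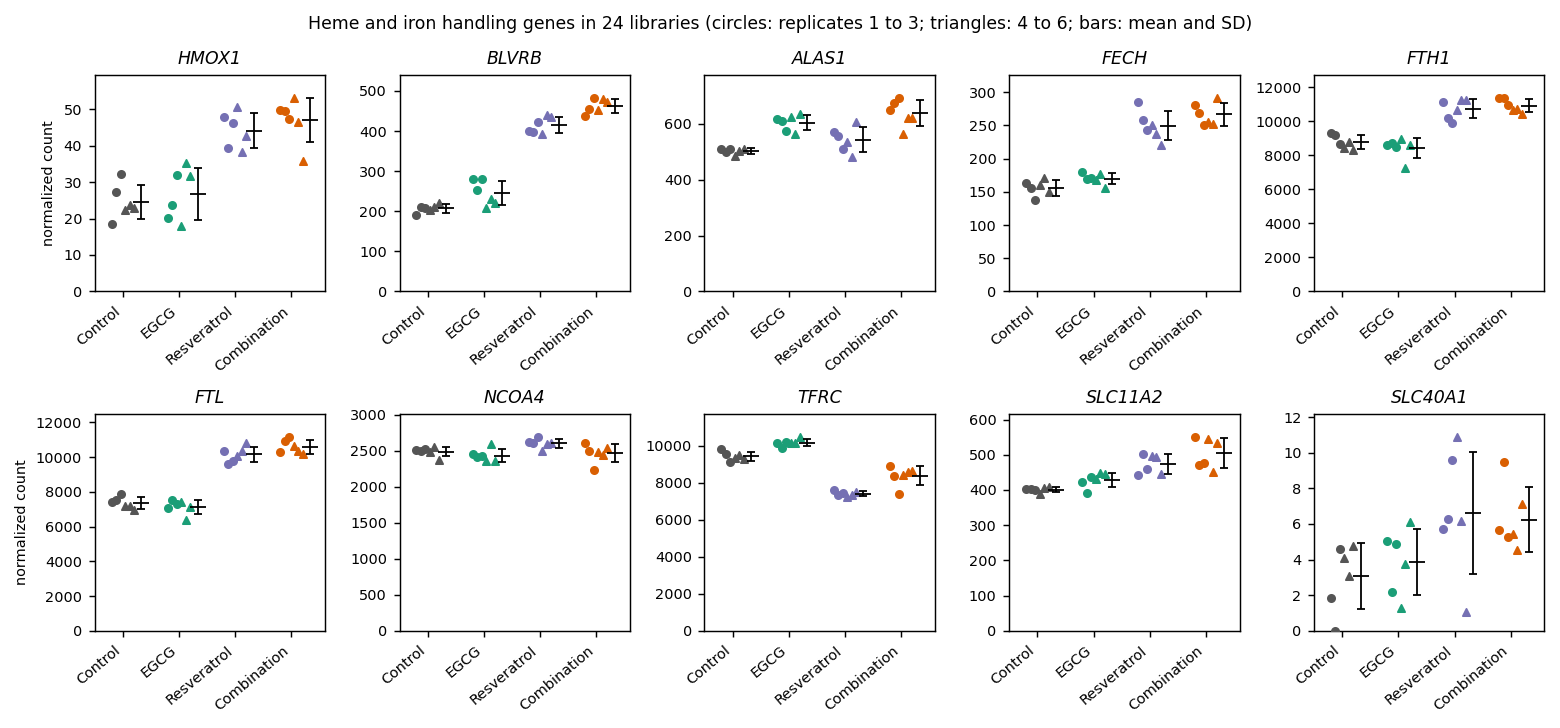
Normalized counts of the 10 genes in each of the 24 libraries, with 6 libraries a group. Circles are replicates 1 to 3, triangles are replicates 4 to 6, and bars are the mean and SD. BLVRB with EGCG is at 252 to 280 for the circles and at 208 to 231 for the triangles, while TFRC is lower in all resveratrol and combination libraries than in any control library.

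At the ends of heme synthesis, ALAS1 rose with each treatment and FECH with the treatments that held resveratrol. ALAS1 (ENSG00000023330, chromosome 3, 52198086 to 52214327, plus strand) was tight in control libraries, at 485 to 511 normalized counts (median 505). It ran from 565 to 636 with EGCG (median 614), from 483 to 608 with resveratrol (median 545) and from 563 to 693 with the combination (median 636). EGCG and combination libraries all lay above the control, and resveratrol libraries overlapped it. From a control mean of 503 ± 9.82 (SD, n = 6), ALAS1 rose with EGCG to 604 ± 28.1, a log2 fold change of 0.26 (SE 0.049, adjusted p = 0.00145), and with the combination to 638 ± 46.2 (0.35, SE 0.049, adjusted p = 1.5e-07). The EGCG change passed within replicates 1 to 3 (0.25) and within replicates 4 to 6 (0.27). With resveratrol the rise was 0.12 (SE 0.049, adjusted p = 0.0462), which passed in neither set alone (0.11 and 0.12), nor without control replicate 4, resveratrol replicate 1 or resveratrol replicate 6. Under scaling by library size alone it was 0.20 (adjusted p = 5.9e-04).

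FECH (ENSG00000066926, chromosome 18, 57544377 to 57586732, minus strand) had 138 to 171 normalized counts in control libraries (median 158), 155 to 179 with EGCG (median 169.98), 221 to 286 with resveratrol (median 247) and 251 to 292 with the combination (median 262). The ranges with resveratrol and with the combination stood clear of the control, and that with EGCG did not. The control mean of 156 ± 11.7 (SD, n = 6) rose to 249.5 ± 21.8 with resveratrol (log2 fold change 0.69, SE 0.063, adjusted p = 1.8e-11) and to 267 ± 16.85 with the combination (0.78, SE 0.063, adjusted p = 6.5e-13). With EGCG the log2 difference was 0.13 (95% interval -0.0050 to 0.27, adjusted p = 0.508).

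The ferritin chains rose together with resveratrol and were not called with EGCG. FTL (ENSG00000087086, chromosome 19, 48965309 to 48966879, plus strand) had 6952 to 7856 normalized counts in control libraries (median 7302), 6366 to 7529 with EGCG (median 7202), 9618 to 10809 with resveratrol (median 10219) and 10157 to 11153 with the combination (median 10492). The resveratrol and combination ranges lay wholly above the control. Its mean of 7356 ± 319.8 (SD, n = 6) rose to 10169 ± 437 with resveratrol (log2 fold change 0.47, SE 0.034, adjusted p = 4.9e-14) and to 10582 ± 392 with the combination (0.53, SE 0.034, adjusted p = 1.5e-15). With EGCG the log2 difference was -0.045 (adjusted p = 0.72).

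FTH1 (ENSG00000167996, chromosome 11, 61959718 to 61967634, minus strand) had 8313 to 9283 normalized counts in control libraries (median 8716), 7245 to 8941 with EGCG (median 8622), 9916 to 11255 with resveratrol (median 10918) and 10437 to 11381 with the combination (median 10836). As for FTL, no resveratrol or combination library reached down to the control range. The mean of 8778 ± 389 (SD, n = 6) rose to 10740.1 ± 574 with resveratrol (log2 fold change 0.30, SE 0.038, adjusted p = 3.6e-08) and to 10921 ± 379 with the combination (0.32, SE 0.038, adjusted p = 6.0e-09). With EGCG the log2 difference was -0.055 (adjusted p = 0.675), and EGCG replicate 5 held the lowest value.

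NCOA4 (ENSG00000266412, chromosome 10, 46005088 to 46030623, minus strand), the ferritin cargo receptor, moved least. It ran from 2367 to 2551 normalized counts in control libraries (median 2497), from 2351 to 2589.7 with EGCG (median 2413), from 2489.6 to 2687 with resveratrol (median 2606) and from 2233 to 2611 with the combination (median 2488). All 4 ranges overlapped. With resveratrol it rose by 0.068 on the log2 scale (SE 0.031, adjusted p = 0.067), a call that neither set of replicates gave alone (0.082 and 0.055) and that was lost in 6 of 12 fits without a single library, those without control replicate 2, 4 or 6 or resveratrol replicate 1, 2 or 3. With the combination the difference was -0.010 (adjusted p = 0.798), and under scaling by library size alone it turned to 0.073 and passed (adjusted p = 0.0617). That scaling also gave 0.16 with resveratrol (adjusted p = 1.4e-04).

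FTH1 reads have uncertain origin, because the genome holds many processed copies of its mRNA. The table lists 25 FTH1 pseudogenes, 20 of them with counts, and 16 FTL pseudogenes, 6 of them with counts. FTH1 pseudogenes together held 24944 ± 823 normalized counts in control libraries (SD, n = 6), more than FTH1 itself, and took 72.6% to 77.5% of the counts of gene and pseudogenes in all libraries. For FTL the pseudogene share was 5.96% to 7.14%. Of all windows of 50 bases, the read length, in the FTH1 transcript, 41.3% also occur in 15 of its pseudogenes, and 63.7% match the other strand of BEST1 transcripts, a gene that had a mean of 29.1 counts over the 24 libraries. The counting program, its strand setting and its handling of reads with several matches are not given in the sources used here. For FTL, 18.5% of windows occur in pseudogenes, for NCOA4 5.66%, and HMOX1, BLVRB, ALAS1, TFRC, SLC11A2 and SLC40A1 have none in another gene.

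The ferritin pseudogene counts rose in the groups where the genes rose, those of FTH1 by more than FTH1 itself. With resveratrol the summed FTH1 pseudogenes held 33999 ± 1214 normalized counts and with the combination 34875 ± 1546, against 24163.5 ± 757 with EGCG (SD, n = 6). Their log2 fold change was 0.45 with resveratrol (adjusted p = 2.7e-16) and 0.49 with the combination (adjusted p = 2.2e-17), against 0.30 and 0.32 for FTH1 alone. With EGCG the difference was -0.044 (adjusted p = 0.612). Of 13 FTH1 pseudogenes tested, 12 rose with resveratrol and 13 with the combination, where 28.9% and 29.9% of all tested genes passed upward. They share windows of 50 bases with FTH1, and the handling of such reads is not given, so these are not 13 separate observations. With EGCG their log2 differences ran from -0.070 to 0.015. With gene and pseudogenes summed, FTH1 rose by 0.41 on the log2 scale with resveratrol (SE 0.026, adjusted p = 6.9e-16) and by 0.44 with the combination (SE 0.026, adjusted p = 5.5e-17), and FTL by 0.48 (SE 0.034, adjusted p = 1.8e-14) and 0.53 (SE 0.034, adjusted p = 5.7e-16). How many of the pseudogene counts came from FTH1 mRNA was not tested.

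**Figure D3:**
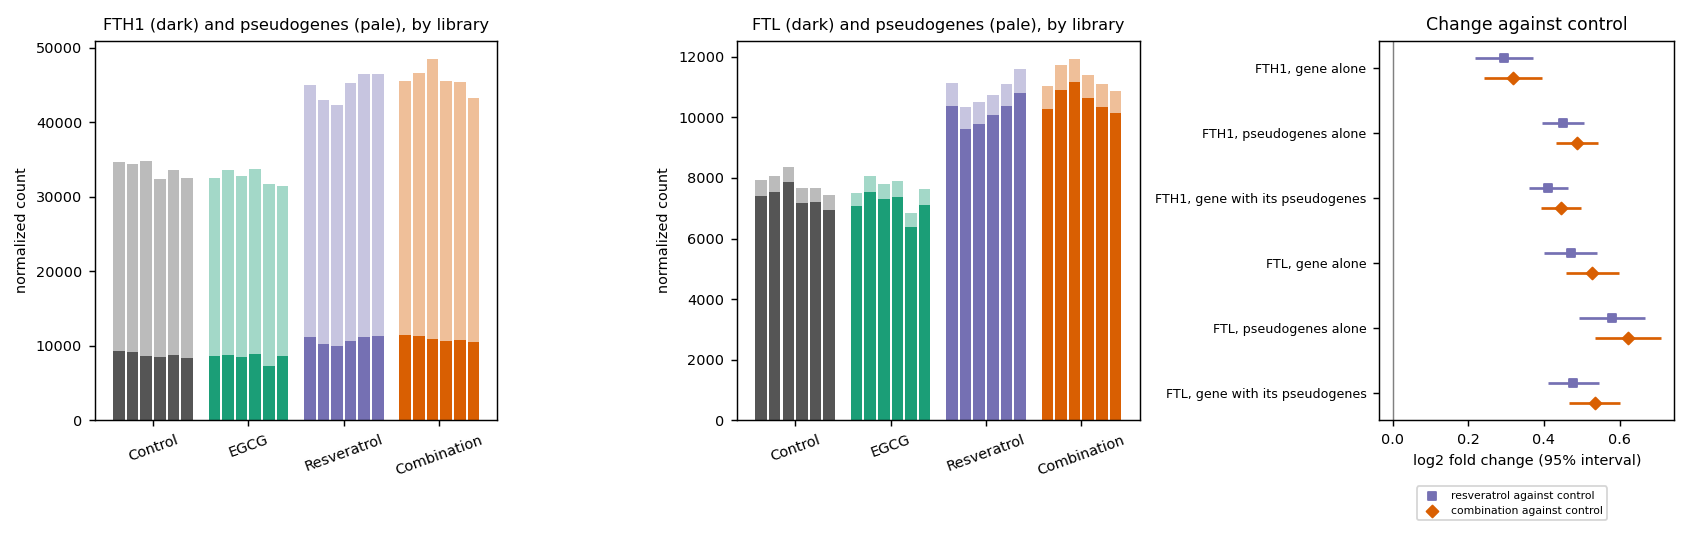
Normalized counts of FTH1 and FTL (dark) and of their summed pseudogenes (pale) in each of the 24 libraries, and the log2 fold change against control of gene, pseudogenes and their sum with 95% intervals. Pseudogenes hold most FTH1 counts (72.6% to 77.5%) and few FTL counts, and gene, pseudogenes and sum lie above 0 with resveratrol and with the combination.

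On the uptake side TFRC was the 1 gene of the 10 that fell. TFRC (ENSG00000072274, chromosome 3, 196012511 to 196082153, minus strand) had 9110 to 9830 normalized counts in control libraries (median 9431), 9878 to 10476 with EGCG (median 10155), 7222 to 7593 with resveratrol (median 7399) and 7400 to 8891 with the combination (median 8494). EGCG libraries lay above the control, and resveratrol and combination libraries below it, with no overlap. The mean of 9446 ± 248 (SD, n = 6) fell to 7408 ± 138.5 with resveratrol (log2 fold change -0.35, SE 0.029, adjusted p = 2.0e-12) and to 8382 ± 517.5 with the combination (-0.17, SE 0.029, adjusted p = 6.0e-06). It rose to 10172 ± 193 with EGCG (0.11, SE 0.029, adjusted p = 0.0513). It passed in neither set of replicates alone, with 0.091 within replicates 1 to 3 (adjusted p = 0.672) and 0.13 within replicates 4 to 6 (adjusted p = 0.106). It did not pass in 8 of 12 fits without a single library (adjusted p = 0.105 to 0.167), those without control replicate 3, 4, 5 or 6 or EGCG replicate 1, 3, 4 or 6.

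SLC11A2 (ENSG00000110911, chromosome 12, 50979401 to 51028566, minus strand) had 388 to 407 normalized counts in control libraries (median 402), 392 to 448 with EGCG (median 434), 443 to 503 with resveratrol (median 477) and 452 to 550.2 with the combination (median 505). Resveratrol and combination libraries all lay above the control. From a mean of 400.5 ± 6.95 (SD, n = 6) it rose to 474 ± 27.3 with resveratrol (log2 fold change 0.25, SE 0.049, adjusted p = 5.1e-05) and to 505 ± 43.4 with the combination (0.34, SE 0.049, adjusted p = 3.3e-07). With EGCG the log2 difference was 0.10 (95% interval 0.0017 to 0.20, adjusted p = 0.482).

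SLC40A1 (ENSG00000138449, chromosome 2, 189560590 to 189583758, minus strand), the iron exporter, was near the limit of detection. It had 0 to 5 raw counts in control libraries, 1 to 6 with EGCG, 1 to 11 with resveratrol and 4 to 9 with the combination. The ranges overlapped. When all genes with at least 1 count were kept in the fit, the log2 fold change was 1.09 with resveratrol (SE 0.40, adjusted p = 0.0325) and 0.98 with the combination (SE 0.42, adjusted p = 0.0716), both of which passed, and 0.34 with EGCG (adjusted p = 0.9).

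The calls above were also read within the sets of replicates. With resveratrol HMOX1, BLVRB, FTH1, FTL, TFRC, SLC11A2 and FECH passed in the same direction in both. With the combination all 8 called genes did. The share of all tested genes that passed in both sets was not computed. On the log2 scale FTH1 with resveratrol rose by 0.21 within replicates 1 to 3 and by 0.38 within replicates 4 to 6. FTL rose by 0.39 and 0.55, and FECH by 0.79 and 0.57. In bulk RNA a change in every cell and a change in the share of cells with the transcript cannot be told apart.

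The ratio of TFRC to FTH1 counts, which sets uptake against storage within a library and does not depend on scaling, was lowered by resveratrol. Its log2 value ran from 0.058 to 0.16 in control libraries (median 0.0995), from 0.18 to 0.49 with EGCG (median 0.25), from -0.62 to -0.41 with resveratrol (median -0.56) and from -0.56 to -0.27 with the combination (median -0.35). Control, EGCG and the resveratrol-containing groups occupied separate ranges, while resveratrol and the combination overlapped. Against the control it changed by 0.17 with EGCG, by -0.64 with resveratrol and by -0.49 with the combination, each with p = 0.00216 in a two-sided exact permutation test (6 against 6 libraries), the smallest p that this design can give, and an adjusted p of 0.00361 over 10 tests. The combination lay above resveratrol by 0.15 (exact permutation p = 0.026, adjusted p = 0.0325), with a difference of 0.026 within replicates 1 to 3 and 0.28 within replicates 4 to 6. This difference passed the limit of 0.05 in 4 of 12 tests without a single library and not in the other 8, those without replicate 1, 4, 5 or 6 of resveratrol or of the combination (exact permutation, adjusted p = 0.0529 to 0.0649). With pseudogene counts added to FTH1 the changes against control were 0.16, -0.76 and -0.62, and the difference between combination and resveratrol was 0.14 (exact permutation, adjusted p = 0.0649).

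FTL rose more than FTH1. The log2 ratio of FTH1 to FTL counts averaged 0.25 ± 0.064 (SD, n = 6) in control libraries and 0.24 ± 0.042 with EGCG. Resveratrol libraries averaged 0.078 ± 0.035 and combination libraries 0.046 ± 0.059. It was lower than in the control by 0.18 with resveratrol (exact permutation, adjusted p = 0.00361) and by 0.21 with the combination (exact permutation, adjusted p = 0.00618). With EGCG it differed by -0.011 (exact permutation, adjusted p = 0.723). With pseudogenes added to both genes the ratio was 2.10 in control libraries, 2.04 with resveratrol and 2.01 with the combination, and it was lower than in the control by 0.067 with resveratrol (exact permutation, adjusted p = 0.0124) and by 0.090 with the combination (exact permutation, adjusted p = 0.00433).

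**Figure D4:**
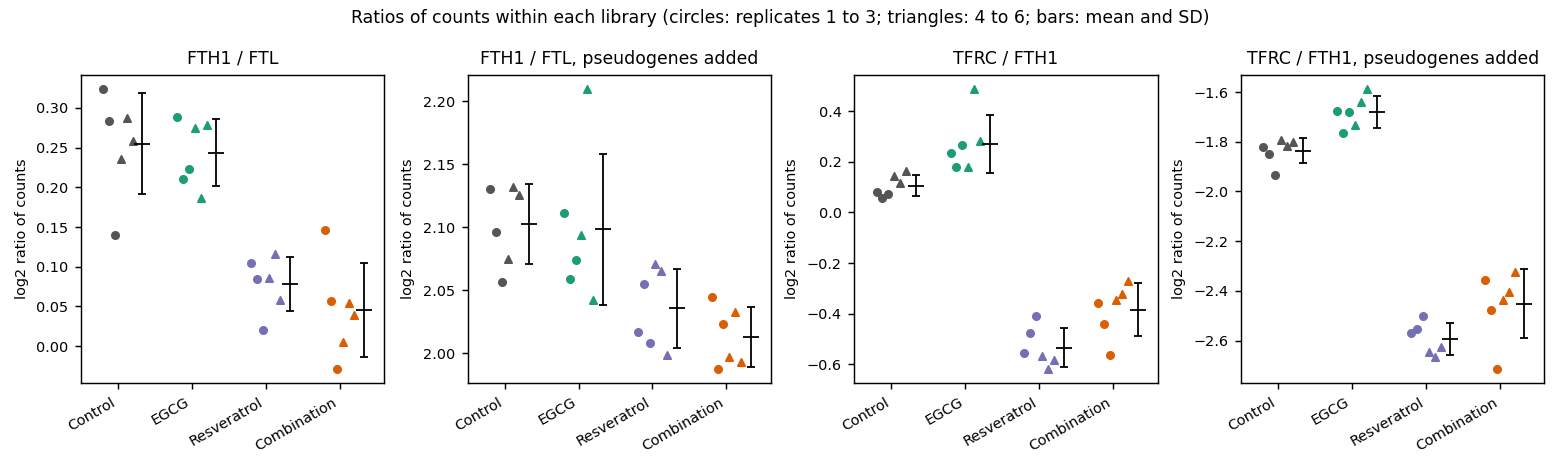
Log2 ratio of FTH1 to FTL counts and of TFRC to FTH1 counts in each of the 24 libraries, for the genes alone and with pseudogene counts added. Circles are replicates 1 to 3, triangles are replicates 4 to 6, and bars are the mean and SD of 6 libraries. TFRC to FTH1 lies at 0.058 to 0.16 in the control, above that with EGCG and at -0.27 or lower with resveratrol or the combination.

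Against resveratrol alone, the combination had more BLVRB, TFRC and ALAS1 transcript. These 3 of 9 genes passed and 6 did not, where 7.86% of all tested genes passed, 4.01% upward and 3.86% downward. ALAS1 was higher by 0.23 on the log2 scale (SE 0.048, adjusted p = 0.00207), TFRC by 0.18 (SE 0.029, adjusted p = 1.2e-04) and BLVRB by 0.16 (SE 0.052, adjusted p = 0.0667). The libraries of all 9 genes overlapped between these groups, where 1.78% of all tested genes lay wholly above and 1.40% wholly below. The same 3 genes had risen with EGCG against control, a comparison that has no library in common with this difference, although the groups share a fit. Of the 3, ALAS1 passed within replicates 1 to 3 (0.30), where TFRC (0.14) and BLVRB (0.17) did not. Within replicates 4 to 6 TFRC passed (0.22), and ALAS1 (0.15) and BLVRB (0.15) did not. BLVRB did not pass in 6 of 12 fits without a single library (resveratrol replicate 1, 2 or 4, or combination replicate 3, 5 or 6). HMOX1 differed by 0.089 (95% interval -0.18 to 0.35), FTL by 0.056 (-0.013 to 0.13) and FTH1 by 0.023 (-0.054 to 0.0998).

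Against EGCG alone, the combination repeated most of the resveratrol changes. Of 9 genes, 6 were higher and 1 (TFRC) was lower, where 57.8% of all tested genes passed, 28.7% upward and 29.1% downward. BLVRB was higher by 0.91 on the log2 scale (adjusted p = 5.2e-16), HMOX1 by 0.78 (adjusted p = 2.6e-05), FECH by 0.64 (adjusted p = 7.0e-11) and FTL by 0.57 (adjusted p = 2.2e-16), and TFRC fell by 0.28 (log2 fold change, adjusted p = 4.0e-10). ALAS1 differed by 0.084 (adjusted p = 0.138), with 0.17 within replicates 1 to 3 (adjusted p = 0.0267) and -0.0012 within replicates 4 to 6 (adjusted p = 0.99). It passed in 5 of 12 fits without a single library, those without EGCG replicate 1, 2, 4 or 6 or combination replicate 4. ALAS1 also passed under scaling by library size alone (0.16, adjusted p = 0.00479) and where every library had to hold at least 10 counts (0.11, adjusted p = 0.0452), and NCOA4 (0.020 here, adjusted p = 0.622) passed under the former (0.096, adjusted p = 0.0148).

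The interaction asks whether the combination departs from the sum of the log2 changes of its agents. In edgeR 0 of 9 genes passed, where 0.265% of all tested genes did (0.207% above and 0.0582% below 0). Of the 9, 1 (FTL) had an unadjusted p under 0.05, and DESeq2 called 0. The interaction of FTL was 0.10 on the log2 scale (95% interval 0.0027 to 0.20, adjusted p = 0.633), that of TFRC 0.068 (-0.016 to 0.15) and that of BLVRB -0.095 (-0.26 to 0.071). The interval of HMOX1 was widest, from -0.49 to 0.36.

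Per length of transcript, the 10 genes spanned a wide range. In control libraries the mean level was 968 ± 42.1 FPKM for FTL (SD, n = 6), 502 ± 22.3 for FTH1, 139 ± 3.64 for TFRC, 69.9 ± 1.79 for NCOA4, 22.7 ± 0.44 for ALAS1, 14.0 ± 0.71 for BLVRB, 4.64 ± 0.081 for SLC11A2, 2.04 ± 0.15 for FECH, 1.22 ± 0.24 for HMOX1 and 0.081 ± 0.049 for SLC40A1. No neighbours in this order overlapped between libraries. The order was the same with EGCG. With resveratrol BLVRB (28.2 FPKM) stood above ALAS1 (24.6 FPKM) and with the combination likewise (31.4 and 28.8 FPKM), but the libraries of these neighbours overlapped. HMOX1 remained the ninth of the 10 in all groups, at 2.34 FPKM with the combination. FTH1 FPKM values hold only the counts given to the gene, not those given to its pseudogenes. In control libraries the FTH1 to FTL ratio of counts was 1.193 for the genes alone and 4.295 with pseudogenes added. FTH1 thus held more counts than FTL in both cases, while FTL led per length of transcript for the genes alone. FPKM values with pseudogenes added were not computed, so the order by FPKM in that case was not tested.

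The other genes of the same pathways were taken from lists that include the 10. Beside their counts stand the shares of all tested genes, 56.9% passing with resveratrol (28.9% upward) and 59.8% with the combination (29.9% upward). In heme synthesis, 6 of 12 tested genes rose and 1 fell with resveratrol, and 4 rose and 1 fell with the combination (median log2 fold change 0.098 and 0.0075), with a total of 7 and 5 of 12 that is near or below the share of all genes. Besides FECH and ALAS1, PPOX, the oxidase that precedes FECH, rose by 0.76 with resveratrol (adjusted p = 1.0e-05) and by 0.62 with the combination (adjusted p = 2.5e-04), and ALAD, which joins the ALAS1 product into porphobilinogen, by 0.35 (adjusted p = 2.3e-06) and 0.38 (adjusted p = 5.6e-07). In heme breakdown and transport, 7 of 12 rose and 1 fell with resveratrol, and 7 rose and 2 fell with the combination (median 0.25 and 0.16). HMOX2, the constitutive heme oxygenase, had a log2 difference of 0.014 with resveratrol (adjusted p = 0.784) and rose by 0.12 with the combination (adjusted p = 0.00812). BLVRA, the other biliverdin reductase, rose by 0.25 (adjusted p = 0.0248) and 0.36 (adjusted p = 0.00132). The heme transporter SLC48A1 and the folate transporter SLC46A1, which can carry heme, rose by 0.43 and 0.30 with resveratrol and by 0.42 each with the combination. With EGCG the called genes in these lists were ALAS1 (1 of 12) and BLVRB (1 of 12). Of all tested genes, 1.76% passed with EGCG, 0.905% upward.

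In iron storage, 3 of 6 tested genes rose and 1 fell with resveratrol, and 2 rose and 1 fell with the combination (median 0.00020 and -0.026), where 56.9% and 59.8% of all tested genes passed. The gene that fell was PCBP2, an iron chaperone that loads ferritin, by 0.20 (log2 fold change, adjusted p = 1.5e-07) and 0.17 (adjusted p = 3.3e-06). In iron uptake, 7 of 11 rose and 2 fell with either treatment (median 0.14 and 0.27). The ferric reductase CYBRD1 rose by 1.01 with resveratrol and 1.05 with the combination, the iron-binding surface protein MELTF by 1.02 and 0.97, the metalloreductase STEAP2 by 0.60 and 0.59, and the siderophore-binding LCN2 by 0.28 and 0.38. The genes that fell were TFRC and STEAP3, an endosomal ferric reductase, which was singled out after its values were seen and fell by 0.17 (log2 fold change, adjusted p = 0.00999) and 0.34 (adjusted p = 7.1e-06). In iron export 1 of 5 genes was tested and did not pass in any comparison against control. With EGCG 1 of 11 uptake genes (TFRC) rose, and in edgeR 0 of 6 storage genes passed, with 0 at an unadjusted p under 0.05. The share of all tested genes that passed with EGCG was 1.76% (0.905% upward).

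Among iron sensing genes, 4 of 6 tested rose and 1 fell with either treatment (median 0.29 and 0.23). BMP6, the signal that induces hepcidin in liver, rose by 1.08 with resveratrol and 0.75 with the combination from 11.4 ± 5.34 normalized counts (SD, n = 6), the erythroferrone gene ERFE by 0.53 and 0.67, and FBXL5, which marks IREB2 for degradation, by 0.24 and 0.15. IREB2, the iron regulatory protein, fell by 0.135 (log2 fold change, adjusted p = 0.023) and 0.22 (adjusted p = 4.2e-04), and ACO1 differed by 0.070 (adjusted p = 0.352) and 0.062 (adjusted p = 0.411). Of 18 genes of mitochondrial iron and iron-sulfur clusters, 3 rose and 7 fell with resveratrol, and 2 rose and 7 fell with the combination (median -0.078 and -0.095), and these totals of 10 and 9 of 18 lie below the 56.9% and 59.8% of all tested genes that passed. The importer SLC25A28 (mitoferrin 2) rose by 0.52 in both, while the iron-sulfur cluster assembly genes LYRM4 and GLRX5 fell, by 0.41 and 0.24 with resveratrol and by 0.32 and 0.40 with the combination (log2 fold changes). With EGCG 0 of 6 and 0 of 18 genes in these lists passed in edgeR, where 1.76% of all tested genes passed. Of these list genes, 1 and 0 had an unadjusted p under 0.05.

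**Figure D5:**
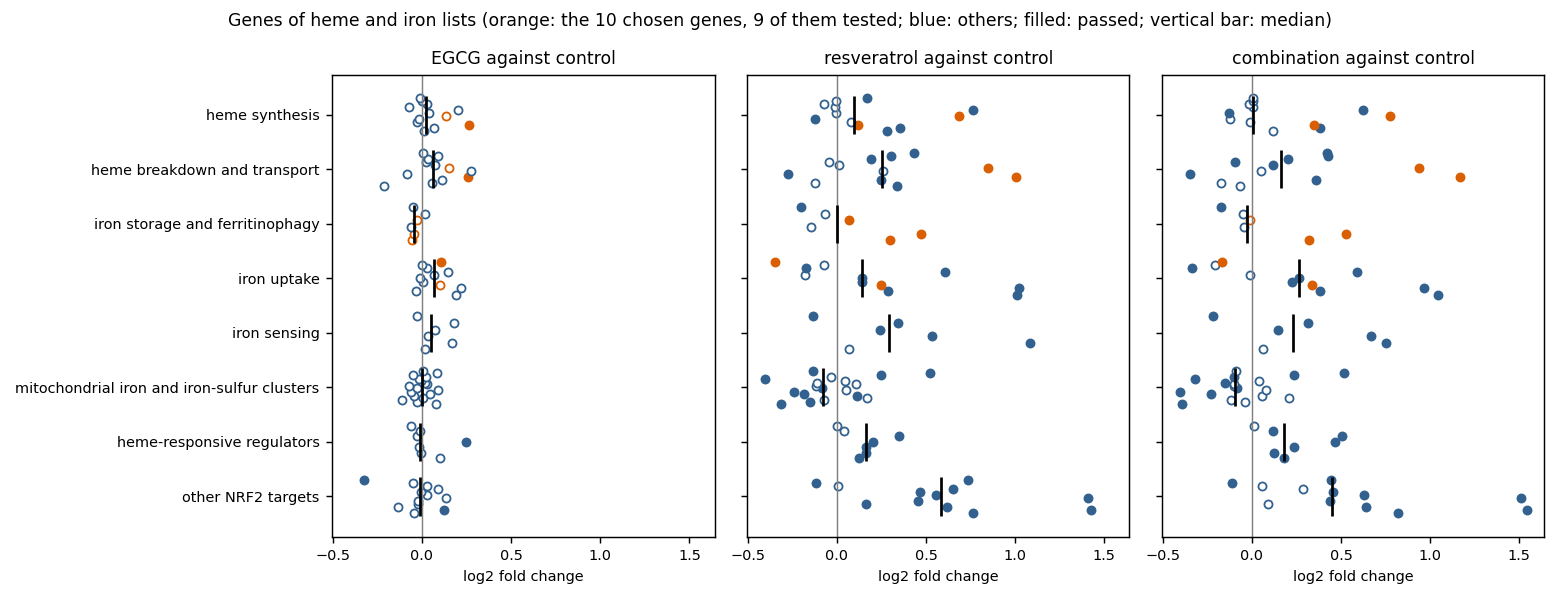
Log2 fold change against control of each tested gene in 8 lists, for EGCG, resveratrol and the combination (6 libraries a group). Orange points are the heme and iron handling genes described here, blue points the other list genes, filled points passed the test, and vertical bars are list medians. Medians with resveratrol run from -0.078 for mitochondrial iron to 0.59 for other NRF2 targets, and with EGCG all 8 medians lie between -0.047 and 0.066.

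Genes listed as heme-responsive regulators rose in part, and not each of them was chosen as a regulator of HMOX1. Of 7 such genes, 5 rose with resveratrol and 6 with the combination, and none fell (median 0.16 and 0.18). Of all tested genes, 56.9% passed with resveratrol (28.9% upward) and 59.8% with the combination (29.9% upward), which also applies to the next list. MAFG, a small partner of NRF2 and BACH1, rose by 0.35 and 0.51, MAFF by 0.20 and 0.47, KEAP1, which targets NRF2 for degradation, by 0.16 and 0.23, and BACH1 by 0.12 (adjusted p = 0.0584) and 0.18 (adjusted p = 0.00594). NFE2L2, which encodes NRF2, differed by 0.00063 (adjusted p = 0.987) and 0.0100 (adjusted p = 0.772). Of 12 other NRF2 targets, 10 rose and 1 fell with resveratrol, and 8 rose and 1 fell with the combination (median 0.59 and 0.45). GCLC, a gene of glutathione synthesis, rose by 1.42 and 1.54, OSGIN1 by 1.41 and 1.51, and thioredoxin reductase TXNRD1 by 0.73 and 0.44. With EGCG, MAFF rose by 0.25 (adjusted p = 0.0506) and GCLC by 0.12 (adjusted p = 0.0774), and TXNRD1 fell by 0.32 (log2 fold change, adjusted p = 1.3e-11).

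HMOX1, BLVRB and FECH changed by at least 1.5-fold against control, and their patterns over the 24 libraries were compared with those of all tested genes by Pearson correlation of log2 CPM. The genes most like HMOX1 were RGS2 (r = 0.91), ATP2A3 (r = 0.90) and RFX5 (r = 0.89). Those most like BLVRB were ACSS2 (r = 0.99), CHAC1 (r = 0.98) and NEU1 (r = 0.98), and those most like FECH were YPEL5, CSRNP2 and NBR1 (r = 0.97 each). The 24 points share 4 treatments, and 56.9% of all tested genes passed with resveratrol.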

How the data were processed

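RNASeq of MDA686TU cells comprised 24 libraries, 6 a group. Per the labels and methods, the authors made stranded mRNA libraries (TruSeq), sequenced paired reads of 50 bases, and used Trimmomatic 0.36 for trimming, HISAT2 2.0.4 for alignment to GRCh38, SAMtools 1.3.1 and DESeq2 1.20.0. The counting program, annotation and strand setting are not given in the sources used here. The authors deposited raw counts per gene, without normalization or pooling. The deposited normalized counts, a signal, were found to equal raw counts over 1 size factor per library. The deposited FPKM values were checked to be a constant multiple of these per gene.

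A single edgeR 4.0.16 model (R 4.3.3) took the raw counts of the 24 libraries (TMM, filterByExpr, quasi-likelihood test, 1 factor of 4 groups), with p-values adjusted over 15476 genes. The biological coefficient of variation was 5.32%. Libraries held 7034872 to 11735574 counts, and the SD over 6 libraries includes counting error. Ratios of raw counts were tested by two-sided exact permutation with adjustment over 10 tests and a limit of 0.05. The fits were tested on simulated data. Symbols and positions came from GENCODE release 44, which named 60261 of 60617 identifiers.

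The 10 genes, the pathway and marker lists and the alternatives were chosen with earlier results of these data known. From each list at most 4 genes passing against control were named, by the largest absolute change, besides HMOX2, BLVRA, BACH1, NFE2L2, IREB2 and ACO1. Some genes that the rule takes are not reported here. The alternatives were DESeq2 1.42.0, 2 other scalings, 2 other filters, an adjusted p under 0.05, only the groups compared, the replicate number as a block, the sets of replicates as a term or alone, each library left out, and pseudogene counts added to FTH1 and FTL. Promoters and proteins were not used here.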

Additional observations from a re-analysis of the deposited data

Results flagged for a closer look

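Among 48 sets of 6 libraries (the 10 genes and the log2 ratios, in each of 4 groups), 4 held a library that lay further from its nearest neighbour, as a share of the range, than Dixon's 95% critical value. Chance gives about 1 in 20 groups.

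FTH1 in EGCG replicate 5 was 7245 normalized counts, against 8514 to 8941 in the other EGCG libraries. The log2 ratio of TFRC to FTH1 counts in the same library was 0.49, against 0.18 to 0.28 in the others. Its summed FTH1 pseudogenes held 24433 normalized counts, within the 22823 to 24863 of the other EGCG libraries. With pseudogene counts added, its log2 ratio was -1.639, within the -1.765 to -1.586 of the others. The division of reads between FTH1 and its pseudogenes in this library was not tested. TFRC in combination replicate 3 was 7400 normalized counts, against 8362 to 8891 in the other combination libraries. NCOA4 in control replicate 6 was 2367 normalized counts, against 2485 to 2551 in the other control libraries. Leaving out EGCG replicate 5 or combination replicate 3 kept the TFRC calls of the affected comparisons, and without control replicate 6 NCOA4 with resveratrol did not pass (adjusted p = 0.16) and TFRC with EGCG did not pass (adjusted p = 0.105).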

How the results depend on the processing

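Of the results on single genes under the alternatives other than leaving out a library, 606 of 639 kept their direction and side of the threshold, 15 lost and 4 gained significance, and 14 changed sign. The sign changes were HMOX1 with EGCG (-0.042 in replicates 1 to 3), NCOA4 with the combination (0.073 by library size, 0.016 with at least 10 counts in every library, 0.0099 in replicates 4 to 6 and 0.0098 with only the groups compared), and in replicates 4 to 6 the combination against resveratrol for FTH1 (-0.059) and FTL (-0.0051) and against EGCG for ALAS1 (-0.0012). Interactions that changed sign were HMOX1 (0.18), SLC11A2 (0.015) and ALAS1 (0.052) in replicates 1 to 3 and BLVRB (0.081), FTH1 (-0.013) and FECH (0.10) in replicates 4 to 6, none of which passed in any fit. Genes called with EGCG numbered 1 in replicates 4 to 6, and 1 to 3 with a library left out. Genes called for the combination against resveratrol numbered 1 in each set of replicates.

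With resveratrol the log2 ratio of TFRC to FTH1 changed against control. The change was -0.55 within replicates 1 to 3 and -0.73 within replicates 4 to 6. For the combination against resveratrol it was 0.026 and 0.28, 0.14 with pseudogenes (adjusted p = 0.0649), 0.15 with the replicate block (adjusted p = 0.117) and 0.13 to 0.19 with a library left out, where 8 of 12 tests missed the limit of 0.05. With a library left out, FTH1 to FTL changed by -0.034 to 0.0027 with EGCG and by -0.053 to -0.018 for the combination against resveratrol (adjusted p = 0.0487 without combination replicate 1), NCOA4 with the combination by -0.027 to 0.016, and the interaction ran from -0.17 to 0.053 for HMOX1, -0.040 to 0.013 for SLC11A2 and -0.062 to 0.0013 for ALAS1. The cause of these changes was not tested. Same-numbered libraries correlated weakly (2 of 36 pairs over 0.1, the highest 0.13), and in 15 pairs the same number was the best match among 6 libraries. Across groups the mean correlation was 0.039 within the same set of replicates and -0.038 between the sets. These values do not settle whether the numbers pair the libraries. The replicate block changed 0 of 54 calls on single genes and, among the 10 ratio tests, only the TFRC to FTH1 call above. HMOX1 and SLC40A1 are limited by few counts.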

Other observations

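The squamous markers did not move as a set. With resveratrol and with the combination the keratins KRT5 (log2 fold change -0.29 and -0.37), KRT14 (-0.29 and -0.34), KRT6A (-0.27 and -0.35) and KRT17 (-0.41 and -0.36) fell, while the adhesion genes CDH1 (0.29 and 0.43) and DSG3 (0.42 and 0.44) rose, and EPCAM did not pass (0.013 and 0.050). TP63 was at -0.039 with resveratrol (edgeR, adjusted p = 0.256) and rose by 0.089 with the combination (edgeR, adjusted p = 0.00778). With EGCG, CDH1 rose by 0.12 (edgeR, adjusted p = 0.00955). COL1A1, a collagen chain typical of fibroblasts, fell by 0.27 with EGCG (log2 fold change, edgeR, adjusted p = 0.00215) and rose by 0.29 with resveratrol (adjusted p = 8.0e-06) and by 0.48 with the combination (adjusted p = 2.9e-10), from 1182 ± 92.5 normalized counts in control libraries (SD, n = 6). These markers moved in the same libraries as the heme and iron handling genes, and their part in those results was not tested.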
